A study of Mus musculus with 12 samples.

Results

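The genes described here are 10 regulators of the integrated stress response and its near neighbours: Atf4, Atf5, Ddit3, Atf3, Nupr1, Trib3, Ppp1r15a, Sesn2, Ddit4, and Vldlr. They were chosen by name, with their changes in these same libraries already known. Their differences from control cells, with the intervals and the calls at a threshold given below, are therefore only a description. No p-values are printed for them. All 10 were found in the deposited table, which keeps genes that reached 1 CPM (CPM is the reads of a gene relative to all reads of its library) in every library and holds 12575 genes with a match in the gene annotation GENCODE vM39 and 16 without. The cells were immortalized embryonic fibroblasts from heterozygous PER2::LUC knock-in mice, a C57 strain in which luciferase is fused to the endogenous clock protein PER2. Confluent cells in 10 cm dishes received fresh medium for 24 h with 10 µM Deazaneplanocin A (DZ), an inhibitor of the S-adenosylhomocysteine hydrolase AHCY, with 1 mM adenine, with 1 mM S-adenosylmethionine (SAM), or with nothing further (CTL). Every dish, CTL included, also held 3.3 mM HCl, because adenine was dissolved in it. Each group had 3 dishes, 12 libraries of polyadenylated RNA in all, and the study asked whether excess SAM acts on cells like its breakdown product adenine and like a known AHCY inhibitor. No source says that the dishes came from separate cell lines or embryos, so the spread between them may be technical.

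In the integrated stress response, kinases that sense amino acid shortage, unfolded proteins, heme shortage, or viral RNA phosphorylate the translation factor eIF2. General protein synthesis then drops while the mRNA of the bZIP transcription factor ATF4 is translated more, and ATF4 switches on genes for amino acid uptake and synthesis, tRNA charging, and redox balance. Among its targets are further transcription factors, such as CHOP (encoded by Ddit3), and proteins that shut the response down again, such as GADD34 (encoded by Ppp1r15a). Because ATF4 is controlled largely at translation, the mRNA levels given here do not show how much ATF4 protein the cells held.

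ATF4 binds with C/EBP partners at the C/EBP-ATF response element (CARE), whose core is written TGATGNAA, and ATF and CREB factors bind the cyclic AMP response element (CRE), TGACGTCA. Both were searched on both strands in the RefSeq promoter windows of the build GRCm38.p6, which run from 250 bases before to 50 bases after each start, and all 10 genes had at least 1 window. The CARE core was in the window of 4 of the 10 genes, Trib3, Atf3, Nupr1, and Vldlr, and in 2.54% of the 8821 genes of the table that had a window (4.51% of all 27025 genes with one). Of the 27 other ATF4 target genes with a window, 7 held it (25.9%). A match is only a run of letters, and these shares were not tested against each other. The CRE was in the window of Ppp1r15a alone among the 10, and in 3.65% of the genes of the table. The stretches around the matches upstream of the start are shown because 3 of these genes carry the same 8 letters, with the matched letters in capitals and each sequence written 5′ to 3′ on the strand of its gene.
Atf3 (chr1:191183410-191183469, minus strand): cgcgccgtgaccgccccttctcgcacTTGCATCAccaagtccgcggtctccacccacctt
Nupr1 (chr7:126625547-126625606, minus strand): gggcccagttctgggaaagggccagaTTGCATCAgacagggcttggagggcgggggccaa
Vldlr (chr19:27216794-27216853, plus strand): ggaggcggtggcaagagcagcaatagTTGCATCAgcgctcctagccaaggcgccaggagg
Ppp1r15a (chr7:45526269-45526306, minus strand): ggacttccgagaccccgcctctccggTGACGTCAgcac
The letters TTGCATCA are the CARE core read on the opposite strand, and they began 110 bases before the start in Atf3 and in Nupr1 and 200 bases before it in Vldlr. The CRE of Ppp1r15a began 12 bases before the start. In Trib3 the match, TTACATCA, began 15 bases into the transcribed part. The windows of Atf4, Ddit3, Atf5, Sesn2, and Ddit4 held neither set of letters, which says nothing about the rest of these genes. Positions in these windows belong to an older build than the gene positions below and cannot be set against them.

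Each library held between 45649534 and 56789090 reads on the genes of the table, and the fewest reads of any of the 10 regulators in a library were 216, for Atf3 under SAM. Replicate libraries of a group differed by more than counting noise: their chi-square over all genes was 15.8 and 19.1 times its degrees of freedom in the 2 pairs that hold SAM replicate 3, and 4.76 to 7.12 times in the other 10 pairs. SAM replicate 3 thus stood apart from the other SAM libraries. Results under SAM are also given without it for the 10 regulators and for some of the gene lists below, but not for all lists. Of 11 fibroblast markers, 9 were in the table, and their summed level was between 22000 and 22400 CPM in CTL, 27800 and 28400 CPM under DZ, 24700 and 26900 CPM under adenine, and 16400 and 17700 CPM under SAM. Col1a1, Col1a2, Col3a1, Vim, and Fn1 were among them, whereas Dcn and Lum were not in the table. Of 9 leukocyte markers only Cd68 was in the table, at between 3.03 and 4.0 CPM in CTL, 2.73 and 3.78 CPM under DZ, 10.8 and 12.3 CPM under adenine, and 15.6 and 17.7 CPM under SAM. None of the 13 markers of endothelial, epithelial, or muscle cells was. The part of these shifts in the results below was not tested, and in RNA of whole dishes, fewer cells of a type and less RNA per cell cannot be told apart.

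Most of these mRNAs were far lower under SAM than in CTL cells and moderately lower under adenine, whereas under DZ they differed from CTL by small amounts in both directions. A gene was called where limma gave an FDR (Benjamini-Hochberg adjusted p over all genes of the table) under 0.01. Under SAM, 9 of the 10 regulators were called lower than CTL, where 35.7% of all genes were called lower and 33.7% higher, and the tenth, Ddit4, was not called. All 9 were lower by at least 1 on the log2 scale, a size and direction that 5.62% of all genes reached. Under adenine, 9 were called lower (31.0% of all genes) and Ddit4 was called higher (30.6% of all genes), and 3 of them, Trib3, Atf3, and Ppp1r15a, were lower by at least 1 on the log2 scale (4.37% of all genes). Under DZ, 4 were called higher (22.6% of all genes) and 3 lower (23.4% of all genes). The median log2 difference of the 10 genes was -2.71 under SAM, -0.52 under adenine, and -0.003 under DZ, beside medians over all genes of -0.015, -0.003, and -0.006. These 3 comparisons share their CTL dishes, and since the genes were selected on these contrasts, nothing is read from the distance between the 10 genes and the rest. Without SAM replicate 3, the same 9 regulators were called lower than CTL, Ddit4 (-0.11) was again not called, and the median of the 10 was -2.706. No regulator's difference from CTL then moved by more than 0.06, which was Nupr1, from -1.24 to -1.30. The plot of all genes with the regulators marked shows where they lie.

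**Figure D1:**
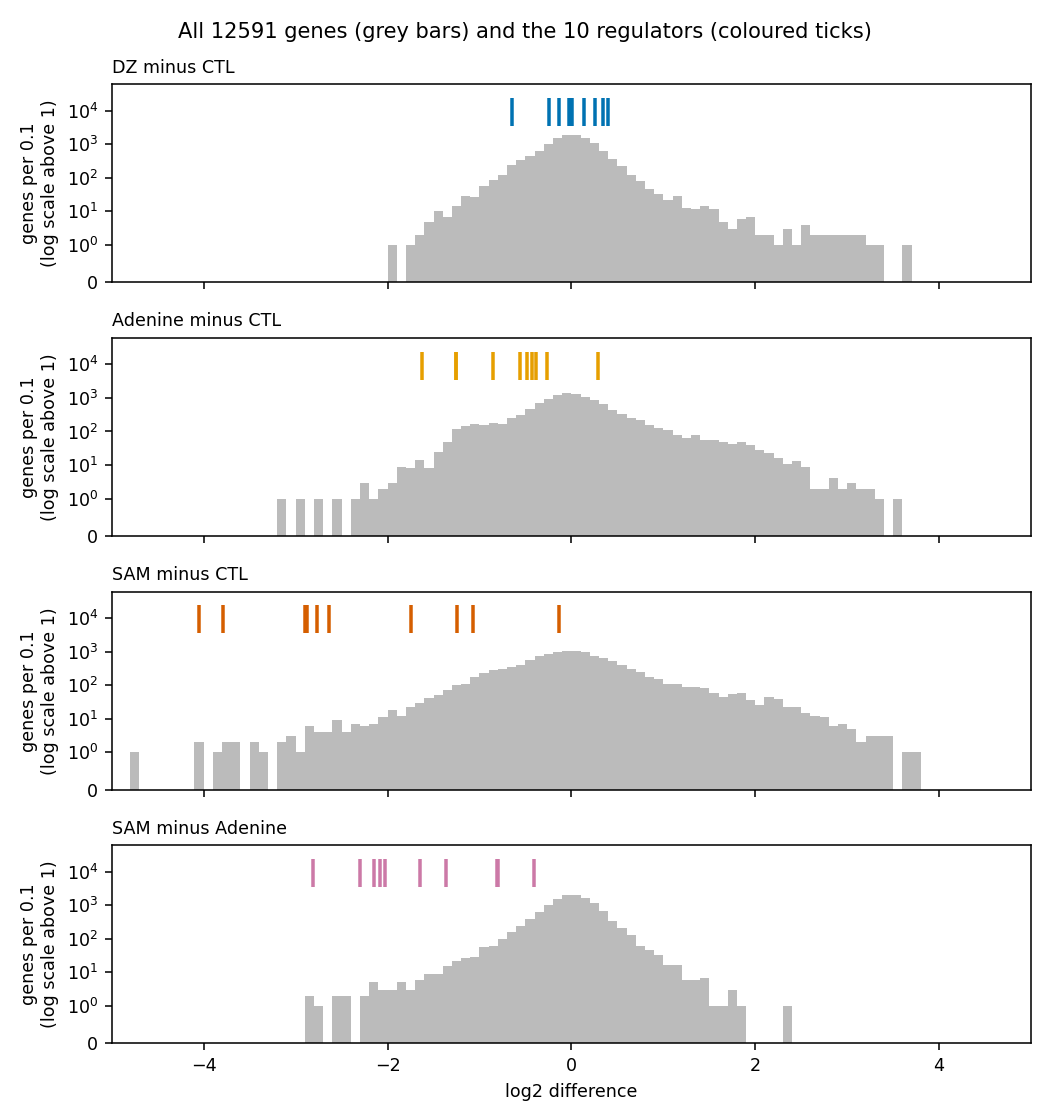
Number of genes per 0.1 bin of log2 difference (grey bars, log scale above 1) for all genes of the table, with the 10 regulators as coloured ticks, in DZ, adenine, and SAM dishes against CTL and in SAM against adenine. Under SAM, 9 ticks lie at or below -1.07 and Ddit4 at -0.13, whereas under DZ all 10 lie between -0.65 and 0.40.

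Atf4 (ENSMUSG00000042406.9, chromosome 15, 80139372 to 80141745, plus strand, GRCm39) encodes the central activator of the response. It was at 9.54, 9.51, and 9.56 log2 CPM in the CTL dishes, at 9.51, 9.52, and 9.52 under DZ, at 9.26, 9.26, and 9.28 under adenine, and at 8.45, 8.44, and 8.52 under SAM. The DZ dishes overlapped with CTL, the adenine dishes lay just below both, and the SAM dishes lay well below the rest. The log2 difference from CTL was -1.07 (SE 0.027, 95% interval -1.13 to -1.01) under SAM, -0.27 (-0.33 to -0.21) under adenine, and -0.02 (-0.08 to 0.04) under DZ. SAM cells thus held 47.7% of the CTL level of Atf4 mRNA and adenine cells 82.9%. The adenine difference depended on the normalization: with quantile normalization it was -0.06 and was not called.

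Atf5 (ENSMUSG00000038539.16, chromosome 7, 44461680 to 44466082, minus strand) encodes a bZIP relative of ATF4 that is likewise controlled at translation. Its values were 9.14, 9.13, and 9.18 log2 CPM in CTL, 8.51, 8.47, and 8.53 under DZ, 8.59, 8.55, and 8.65 under adenine, and 6.52, 6.51, and 6.52 under SAM. The DZ dishes lay clearly below CTL and just below the adenine dishes, with no overlap between any of the groups. Its log2 difference under DZ, -0.65 (SE 0.03, -0.71 to -0.58), had the largest size of the 10 genes, and the value under adenine was -0.56 (-0.62 to -0.49). SAM gave -2.64 (-2.70 to -2.57), and SAM cells kept 16.1% of the CTL level. Exons of Atf5 overlap on the opposite strand with exons of Nup62, which is in the table, and of Il4i1, which is not. The library kit keeps strand, but whether the counting used it is not given in the sources used here, so reads of such overlapping genes cannot be assigned with certainty.

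Ddit3 (ENSMUSG00000025408.16, chromosome 10, 127124268 to 127132163, plus strand) encodes CHOP, a bZIP factor downstream of ATF4 that is known for its part in stress-induced cell death. The CTL dishes were at 8.08, 8.09, and 8.10 log2 CPM, the DZ dishes at 8.36, 8.33, and 8.35, the adenine dishes at 7.25, 7.21, and 7.27, and the SAM dishes at 5.15, 5.17, and 5.30. All 4 groups were separate, with DZ highest and SAM lowest. The log2 difference from CTL was 0.26 (SE 0.036, 0.18 to 0.33) under DZ, -0.85 (-0.92 to -0.77) under adenine, and -2.88 (-2.96 to -2.81) under SAM, a 7.37-fold lower level. Exons of Ddit3 overlap on the opposite strand with those of Mbd6 and Mars1, and a second gene model of the same name on the same strand is not in the table. Mars1, the cytosolic methionyl-tRNA synthetase named for this overlap after its values were seen, had log2 differences of 0.47 under DZ, 0.33 under adenine, and -0.21 under SAM. The share of Ddit3 reads that came from overlapping genes was not tested.

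Atf3 (ENSMUSG00000026628.14, chromosome 1, 190902493 to 190950241, minus strand) encodes a stress-induced bZIP factor and is one of the genes with the CARE letters shown above. It was at 5.85, 5.82, and 5.83 log2 CPM in CTL, 6.16, 6.15, and 6.21 under DZ, 4.23, 4.23, and 4.15 under adenine, and 2.05, 1.97, and 2.12 under SAM. The groups were separate and in the same order as for Ddit3, and the reads behind these values fell from between 2550 and 2693 in CTL to between 216 and 244 in SAM. Of the 10 genes, Atf3 had the largest difference under adenine, -1.63 (SE 0.05, -1.74 to -1.52), and under SAM it was -3.79 (-3.89 to -3.68), which left 7.25% of the CTL level. DZ gave 0.34 (0.23 to 0.45).

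Nupr1 (ENSMUSG00000030717.10, chromosome 7, 126222414 to 126230033, minus strand) encodes a small chromatin-binding protein that cells make under many kinds of stress, and it carries the CARE letters at the same distance from the start as Atf3. It ranged from 7.85 to 7.90 log2 CPM in CTL, from 8.24 to 8.32 under DZ, from 7.39 to 7.53 under adenine, and from 6.54 to 6.75 under SAM, and no ranges overlapped. Its DZ difference of 0.40 (SE 0.047, 0.30 to 0.50) was the highest of the 10 genes. The values under adenine and SAM, -0.43 (-0.54 to -0.33) and -1.24 (-1.35 to -1.14), were smaller in size than those of Ddit3 and Atf3. Exons of Nupr1 overlap with the antisense gene Gm39087, which is not in the table.

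**Figure D2:**
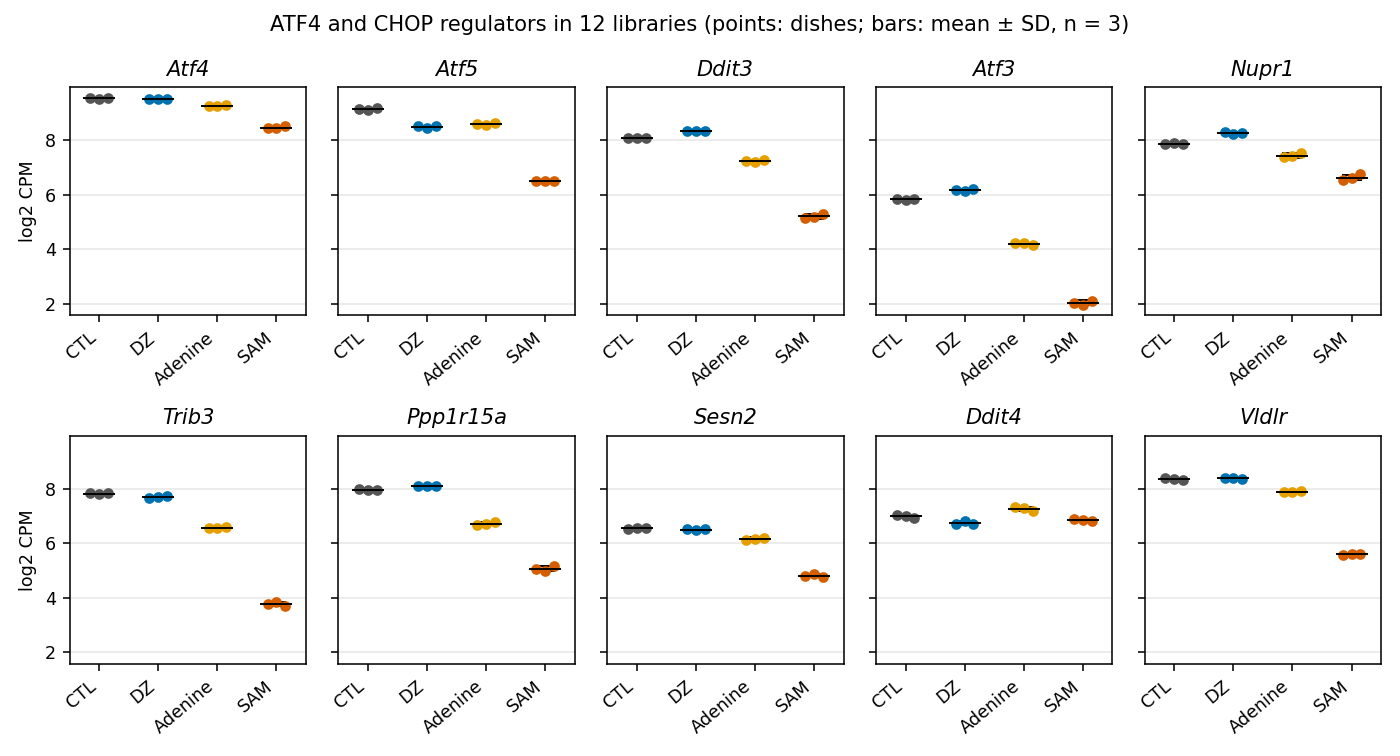
Level of each of the 10 regulators in log2 CPM in the 12 libraries, with 1 point per dish and a bar for the mean ± SD of the 3 dishes of CTL, DZ, adenine, and SAM. SAM dishes are lowest for 9 genes, and for Ddit4 the adenine dishes, between 7.19 and 7.34, are highest and the DZ dishes, between 6.70 and 6.82, lowest.

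Trib3 (ENSMUSG00000032715.10, chromosome 2, 152179337 to 152191958, minus strand) encodes a pseudokinase that binds ATF4 and the kinase AKT and dampens the response. The CTL dishes were at 7.84, 7.81, and 7.84 log2 CPM, the DZ dishes at 7.66, 7.72, and 7.73, the adenine dishes at 6.55, 6.58, and 6.60, and the SAM dishes at 3.78, 3.84, and 3.70. No other regulator had so low a share left under SAM, 6.02% of CTL, with reads that went from between 10094 and 10744 to between 649 and 815. Its log2 difference of -4.05 (SE 0.037, -4.13 to -3.98) ranked 2 among the falls under SAM of the genes in the table. Genes below 1 CPM in any library are left out of this rank. Adenine gave -1.25 (-1.33 to -1.17). Under DZ the value was -0.13 (-0.20 to -0.05), and this call was lost when any 1 of the 6 CTL and DZ libraries was left out.

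Ppp1r15a (ENSMUSG00000040435.13, chromosome 7, 45172340 to 45175692, minus strand) encodes GADD34, which brings the phosphatase PP1 to eIF2 and so restores translation. It was at 7.99, 7.96, and 7.96 log2 CPM in CTL, at 8.10, 8.12, and 8.12 under DZ, at 6.67, 6.71, and 6.79 under adenine, and at 5.07, 5.0, and 5.16 under SAM. The order of the groups was that of Ddit3 and Atf3, with no overlap. Its log2 differences were -1.25 (SE 0.04, -1.33 to -1.16) under adenine and -2.90 (-2.98 to -2.81) under SAM, and SAM cells held 13.4% of the CTL level. The DZ value, 0.14 (0.06 to 0.22), also lost its call without any 1 of the 6 libraries, so that 5 rather than 7 of the regulators were called under DZ in each of these refits. The share of all genes called under DZ in either direction was 45.9% with all libraries and 39.3% to 41.6% in these refits, close to 5 of 10. Its close relative in the phosphatase complex, Ppp1r15b, chosen for this relation after its values were seen, had log2 differences of 0.26 under DZ, -0.09 under adenine (not called), and -0.33 under SAM. Exons of Ppp1r15a overlap with Tulp2 on the opposite strand, which is not in the table.

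Sesn2 and Ddit4 encode inhibitors of the growth kinase complex mTORC1 that are induced by stress, and their levels differed in pattern. Sesn2 (ENSMUSG00000028893.9, chromosome 4, 132219335 to 132237815, minus strand), a leucine-sensing sestrin, ranged from 6.53 to 6.56 log2 CPM in CTL, from 6.48 to 6.54 under DZ, from 6.11 to 6.21 under adenine, and from 4.77 to 4.87 under SAM. Its DZ and CTL ranges overlapped. The log2 difference was -0.03 (SE 0.037, -0.11 to 0.05) under DZ, -0.38 (-0.46 to -0.30) under adenine, and -1.74 (-1.82 to -1.66) under SAM, which left 30.0% of the CTL level.

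Ddit4 (ENSMUSG00000020108.5, chromosome 10, 59785491 to 59788492, minus strand) encodes REDD1, which acts through the TSC1 and TSC2 complex. It was at 7.04, 6.99, and 6.93 log2 CPM in CTL, at 6.70, 6.82, and 6.73 under DZ, at 7.34, 7.29, and 7.19 under adenine, and at 6.88, 6.87, and 6.83 under SAM. Ddit4 was the only one of the 10 genes with its highest dishes under adenine and its lowest under DZ, and the 4 ranges lay close to each other without overlap. The log2 difference was 0.29 (SE 0.042, 0.20 to 0.38) under adenine, -0.24 (-0.33 to -0.15) under DZ, and -0.13 (-0.22 to -0.04) under SAM. The SAM value was not called, but it was called with median centring (-0.17), without CTL replicate 3 (-0.16), and with robust empirical Bayes or a replicate block (both -0.13).

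Vldlr (ENSMUSG00000024924.15, chromosome 19, 27193862 to 27231631, plus strand) encodes the very low density lipoprotein receptor, a lipoprotein and reelin receptor known as an ATF4 target, and carries the CARE letters shown above. Its values were 8.39, 8.38, and 8.34 log2 CPM in CTL, 8.39, 8.41, and 8.36 under DZ, 7.87, 7.88, and 7.94 under adenine, and 5.57, 5.63, and 5.60 under SAM. DZ and CTL overlapped, and SAM was far below. The log2 difference was 0.01 (SE 0.03, -0.05 to 0.08) under DZ, -0.48 (-0.54 to -0.41) under adenine, and -2.77 (-2.84 to -2.71) under SAM, which left 14.6% of the CTL level. Exons of Vldlr overlap with the antisense gene Gm50114, which is not in the table.

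**Figure D3:**
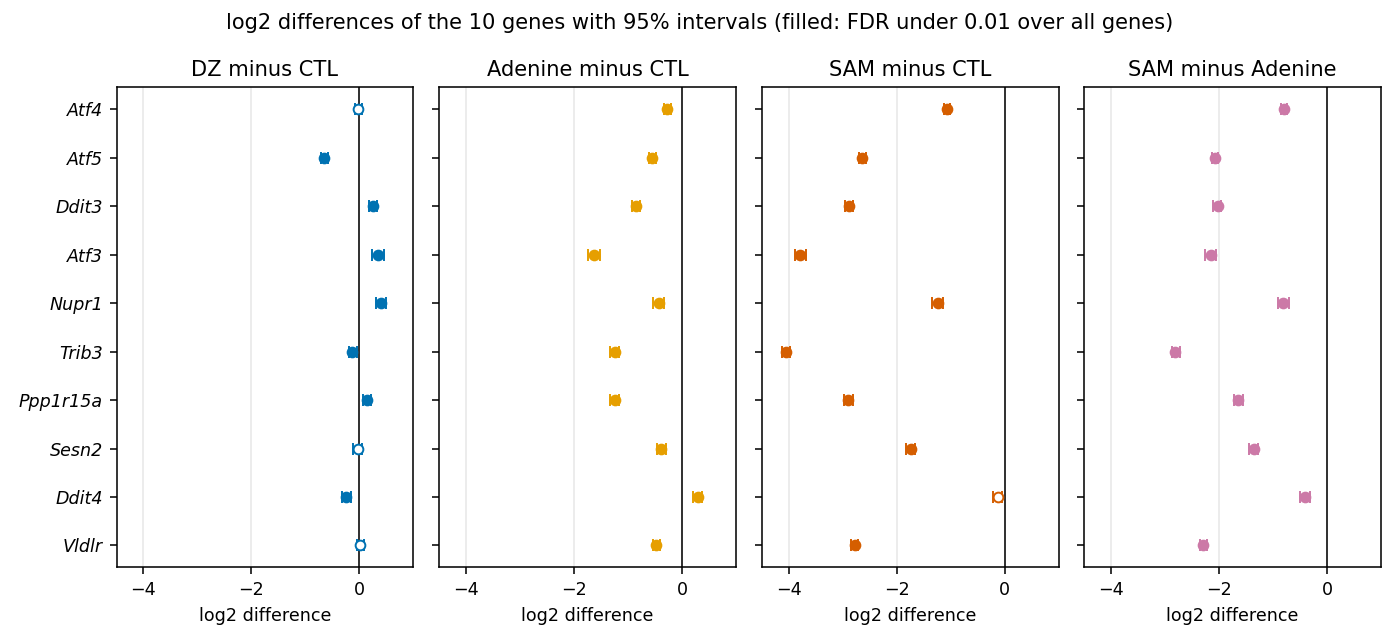
The log2 difference of each regulator with its 95% interval in DZ, adenine, and SAM dishes against CTL, and in SAM against adenine dishes, where filled points had an FDR under 0.01 over all genes. The SAM panel runs from -4.05 for Trib3 to -0.13 for Ddit4, and all 10 points lie below 0 in the SAM minus adenine panel.

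Scaled by the length of the canonical transcript, the 10 mRNAs were at quite different levels in CTL cells. Atf4 was the most abundant at 427 ± 7.9 CPM per kb (SD, n = 3), followed by Atf5 at 313 ± 5.8. Nupr1 at 283 ± 4.6 and Ddit3 at 278 ± 2.3 came next and differed by no more than the sum of their SDs, as did Trib3 at 109 ± 1.0 and Ppp1r15a at 108 ± 1.2. Ddit4 was at 72.1 ± 2.8 and Vldlr at 40.2 ± 0.70, and Atf3 at 28.7 ± 0.35 and Sesn2 at 26.8 ± 0.31 were the lowest. In SAM cells Atf4 was still the highest, at 204 ± 6.1 CPM per kb, and Nupr1 was at 120 ± 8.8. Ddit4 had moved up to the third place, at 66.0 ± 1.3, ahead of Atf5 at 50.3 ± 0.26 and Ddit3 at 37.8 ± 2.2. Ppp1r15a was at 14.5 ± 0.83 and Sesn2 at 8.04 ± 0.33. Trib3 at 6.55 ± 0.33, Vldlr at 5.88 ± 0.13, and Atf3 at 2.09 ± 0.11 were the lowest under SAM.

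SAM and adenine were given at the same concentration of 1 mM in the medium for the same time, and these dishes are set against each other here, in 10 pairs of values. An equal concentration in the medium need not mean equal amounts inside the cells. Each of the 10 regulators was called lower under SAM than under adenine, where 22.0% of all genes were called lower and 20.8% higher. The median log2 difference of the 10 genes between SAM and adenine was -1.84, beside 0.0 over all genes. The difference was largest for Trib3 at -2.81 (SE 0.037, -2.88 to -2.73), a 6.99-fold lower level, and next for Vldlr at -2.30 (-2.36 to -2.23), Atf3 at -2.15 (-2.26 to -2.05), Atf5 at -2.08 (-2.14 to -2.02), and Ddit3 at -2.03 (-2.11 to -1.96). Ppp1r15a at -1.65 (-1.73 to -1.56) and Sesn2 at -1.36 (-1.44 to -1.28) followed. Nupr1 at -0.81 (-0.91 to -0.71) and Atf4 at -0.80 (-0.86 to -0.74) differed less. Ddit4 had the smallest difference, -0.41 (-0.50 to -0.32), and it was the gene that stood above CTL under adenine. Without SAM replicate 3, all 10 were again called lower than under adenine, with a median of -1.886. DZ was given at 10 µM, so its values stand beside those of adenine and SAM without a comparison of doses.

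The other genes of the pathway, from lists written with earlier results of these libraries known, show how the regulators lie among their neighbours. Over all genes, 33.7% were called higher and 35.7% lower under SAM, 30.6% and 31.0% under adenine, and 22.6% and 23.4% under DZ. All list counts here and below stand beside these shares, and counts near them are not read as results about a list. Upstream, the 20 genes of the eIF2 kinases, the eIF2 phosphatase complex, and eIF2 itself were near them under SAM: 7 were called higher and 8 lower under SAM, 6 higher and 8 lower under adenine, and 7 higher and 3 lower under DZ, with list medians of -0.06, -0.13, and 0.12. The heme-sensing kinase gene Eif2ak1 was 0.20 above CTL on the log2 scale under SAM, the endoplasmic reticulum kinase gene Eif2ak3 (PERK) 0.52, and the amino acid-sensing kinase gene Eif2ak4 (GCN2) 0.52, and adenine gave 0.14, 0.31, and 0.22. These 3 of the 4 kinase mRNAs were called higher under SAM and under adenine, as were 33.7% and 30.6% of all genes. The mRNA levels do not show how active the kinases were, and phosphorylation of eIF2 was not measured here. The fourth kinase gene, Eif2ak2 (PKR), which senses double-stranded RNA and is induced by interferon, was 1.13 higher under DZ and was not called under adenine (-0.15) or SAM (-0.02). Eif2s2, a subunit of eIF2, was at -0.79 under SAM, and Oma1, the mitochondrial protease that relays stress to eIF2 kinases, was 0.72 higher.

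Downstream, the 40 measured of 42 other ATF4 target genes were all called lower under SAM, with a median log2 difference of -1.65. Under adenine 31 were called lower and 1 higher (median -0.32), and under DZ 24 were called higher and 3 lower (median 0.16). All 40 were also called lower under SAM than under adenine (median -1.23), and both counts and medians were the same without SAM replicate 3. The folate enzyme gene Aldh1l2 had the largest fall under SAM, -3.48, against -0.71 under adenine and 0.22 under DZ. Cth, the enzyme that makes cysteine from cystathionine, was at -3.15 under SAM and -1.02 under adenine. Slc7a11, the cystine importer, was at -3.02 under SAM but was not called under adenine (-0.16), and Chac1, which degrades glutathione, was likewise at -2.54 under SAM and at -0.08, not called, under adenine. Asns, asparagine synthetase, was at -2.05, -0.47, and 0.20 under SAM, adenine, and DZ. This list was chosen with results of these libraries known and is not independent evidence of its direction.

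The 8 measured CHOP target genes were divided under SAM, with 3 called higher and 5 lower (median -0.72), and with 2 higher and 3 lower under adenine (median 0.0) and 3 in each direction under DZ (median 0.0). Ero1a, an oxidase of the endoplasmic reticulum, was at -2.31 under SAM and -1.06 under adenine, and Bbc3, which encodes the cell death protein PUMA, at -1.23 and -0.40. Chac1 belongs to this list as well. Bbc3 and Pmaip1 are also in the list of p53 targets below, so the counts of these lists share genes. Of 22 measured bZIP partners and relatives, 13 were called lower and 5 higher under SAM (median -0.21), 9 lower and 6 higher under adenine (median -0.11), and 2 lower and 9 higher under DZ (median 0.07). Without SAM replicate 3, 10 rather than 13 of these were called lower under SAM. Atf6, a sensor of unfolded proteins, was at -1.63 under SAM and -0.98 under adenine. The immediate early genes Fos and Jun went the other way, with 1.85 and 1.05 under SAM and 2.24 and 1.39 under adenine.

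**Figure D4:**
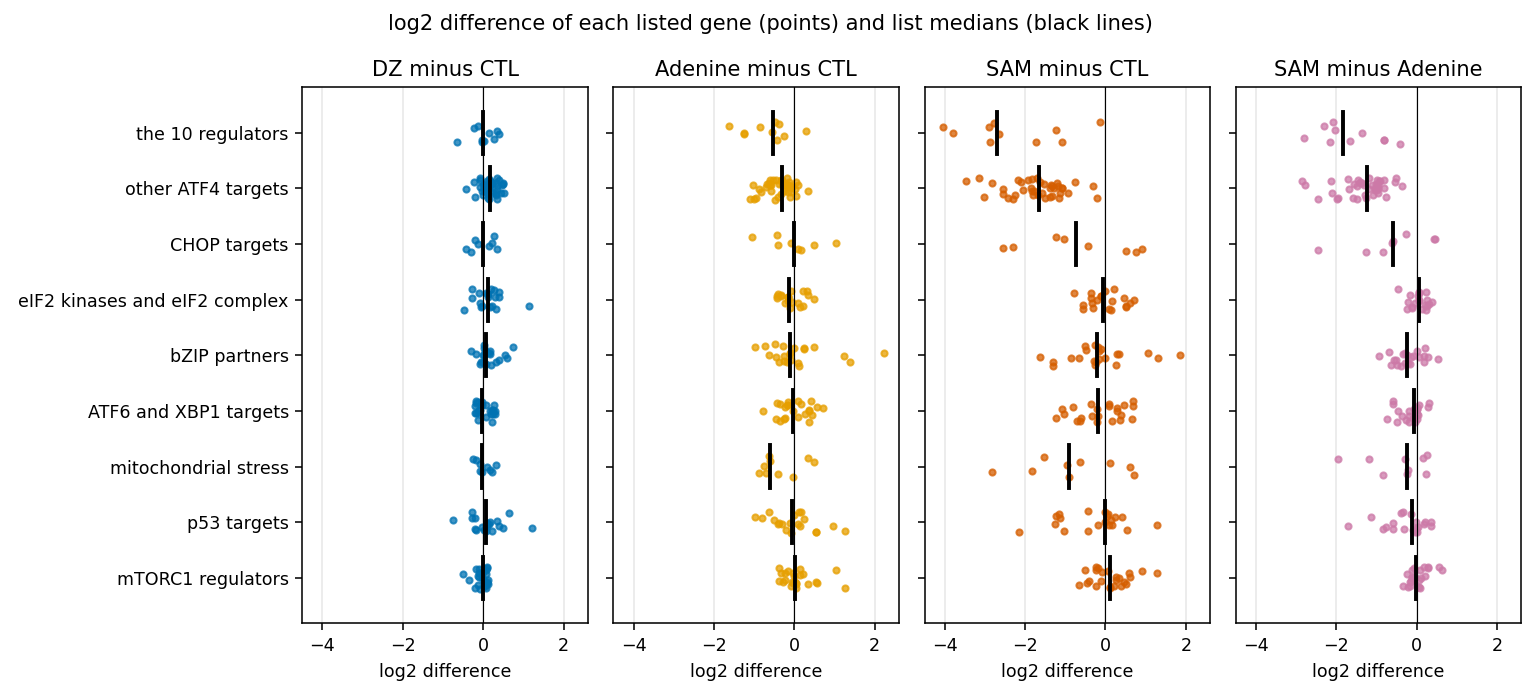
The log2 difference of each measured gene (points) of the 10 regulators and 8 other gene lists, with the median of each list as a black line, in DZ, adenine, and SAM dishes against CTL and in SAM against adenine. Under SAM the medians of the regulators (-2.71) and of the other ATF4 targets (-1.65) lie to the left of those of the other lists, which run from -0.90 to 0.12.

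The targets of the other unfolded protein sensors, ATF6 and XBP1, did not follow 1 direction. Of 23 measured genes, 9 were called higher and 11 lower under SAM (median -0.19), 9 higher and 10 lower under adenine (median -0.04), and 9 higher and 3 lower under DZ (median -0.03). Under SAM, Derl1 was at -1.23, Herpud1 at -1.09, and Sel1l at -1.02, and all 3 act in the removal of misfolded proteins from the endoplasmic reticulum. Of the 9 measured mitochondrial stress genes, 6 were called lower and 3 higher under SAM (median -0.90), 6 lower and 2 higher under adenine (median -0.61), and 2 in each direction under DZ (median -0.02). Fgf21, a stress hormone, was at -2.82 under SAM, Lonp1, a mitochondrial protease, at -1.82, and Hspa9, a mitochondrial chaperone, at -1.54. Fgf21 and Lonp1 are also in the list of ATF4 targets.

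Some relatives of Sesn2 were higher where it was lower. Among 24 measured mTORC1 regulators, 11 were called higher and 7 lower under SAM (median 0.12), 7 higher and 5 lower under adenine (median 0.01), and 3 lower under DZ (median -0.01). The sestrin genes Sesn1 and Sesn3 were 1.28 and 0.92 above CTL under SAM and 1.25 and 1.04 above it under adenine on the log2 scale, where Sesn2 was below it, and Akt1s1, an inhibitor within mTORC1, was at -0.66 under SAM. Among the 20 p53 targets, 4 were called higher and 9 lower under SAM (median -0.02), 6 and 8 under adenine (median -0.05), and 6 and 5 under DZ (median 0.08). Gadd45a, a DNA damage response gene also known to answer to ATF4, was at -2.14 under SAM and -0.99 under adenine, and Rrm2b, a ribonucleotide reductase subunit, at -1.25 and -0.50. Sesn1, which was higher under both, is in the list of p53 targets as well.

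Across the 12 libraries, Atf4 and Ddit3 correlated closely with the other regulators apart from Ddit4. Directions still differed under DZ, with Atf5 at -0.65 and Nupr1 at 0.40. The regulators were chosen with their changes in these libraries known, so these correlations are only a description. Pearson's r of log2 CPM with Atf4 was between 0.946 (Nupr1) and 0.997 (Trib3) for 8 of the regulators and 0.102 for Ddit4. With Ddit3 it was between 0.927 (Atf5) and 0.993 (Trib3), and -0.008 for Ddit4. The libraries fall into 4 groups, so such a value mostly compares 4 group levels, and many genes reach it: of 10319 genes whose mean reached 3 log2 CPM, 338 had an r of at least 0.95 with Atf4, 414 with Ddit3, and 405 with Trib3. Outside the 10, the genes most like Atf4 were Serpinf1 (r = 0.9978), Mthfd2 (0.9975), and Acot2 (0.9974), and those most like Trib3 were Acot2 (0.9976), Ssbp2 (0.9970), and Phf10 (0.9969). Of these, Mthfd2 is in the list of ATF4 targets, whereas Serpinf1, Acot2, Ssbp2, and Phf10 are in none of the lists. The genes most like Ddit3 were Gpt2 (0.9989), Cebpg (0.9985), and Cth (0.9984). Gpt2 and Cth are in the list of ATF4 targets, and Cebpg encodes a bZIP partner of ATF4.

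The calls also depend on how libraries are scaled to each other. With plain read totals in place of the authors' normalized library sizes, the median log2 difference of all genes under SAM moved from -0.015 to 0.106, and the share of calls that were higher moved from 48.5% to 61.2%. Between SAM and adenine the share moved from 48.6% to 63.2%. The median of the 10 regulators was then -2.584 under SAM and -1.78 between SAM and adenine, and no called regulator changed its sign.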

How the data were processed

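Polyadenylated RNA of 12 dishes was sequenced. The authors trimmed reads with Trimmomatic, aligned them to GRCm39 with HISAT2 guided by GENCODE vM27, quantified transcripts with StringTie, and retained those that reached 1 CPM in every sample. With edgeR, the authors then made the deposited log2 CPM values on normalized library sizes. These were used here as they stand. Tool versions are not given in the sources used here. With the prior count of 2 taken off, 100% of values were within 0.05 of whole reads, which gave each library's depth.

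Groups came from the treatment labels. One model of all 12 libraries was fitted with limma 3.58.1 (R 4.3.3) with a variance trend, and p-values were adjusted by Benjamini-Hochberg over all genes. The 10 genes, the gene lists, and the tests were chosen with earlier results of these data known. From each list, the 3 largest called differences from CTL under any treatment were named, plus Eif2ak1 to Eif2ak4, Asns, and Chac1. One gene picked by this rule, with its list, is not reported here. Genes that resemble Atf4, Ddit3, and Trib3 were ranked by Pearson's r. Symbols, positions, and lengths come from GENCODE vM39, in which 12575 identifiers were found and 16 were not, and promoter windows from RefSeq, matched by symbol. Alternatives were other limma settings, scalings, filters, a pseudocount, voom on recovered reads, a replicate block, and leaving out each library. Same-numbered libraries did not deviate together (r between -0.142 and 0.181 over 18 pairs). Tables and plots were made with Python 3.11.15, pandas 2.3.3, and matplotlib 3.10.9. The fit was tested on simulated data.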

Additional observations from a re-analysis of the deposited data

How the results depend on the processing

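With voom on the recovered reads, 7, 10, 9, and 10 of the 10 regulators were called in DZ, adenine, and SAM against CTL and in SAM against adenine, the same numbers as in the report. Leaving out 1 library at a time gave 5 under DZ, 10 under adenine, 9 to 10 under SAM, and 10 for SAM against adenine, where the share of all genes called in either direction was 39.3% to 41.6%, at most 57.8%, 65.3% to 68.4%, and 35.7% to 39.4%. The median log2 difference of the 10 genes then ran from -0.007 to 0.002 under DZ, from -0.543 to -0.501 under adenine, from -2.712 to -2.699 under SAM, and from -1.886 to -1.812 for SAM against adenine. With quantile normalization this median was 0.064, -0.395, -2.596, and -1.865 in the same order, and with plain read totals it was 0.022, -0.456, -2.584, and -1.78. Median centring gave -0.569 under adenine and -2.745 under SAM, and a pseudocount of 1 CPM gave -1.769 for SAM against adenine. Over all refits of the 40 differences of single regulators, 656 kept their call or lack of one, 19 lost the call, and 5 gained it. Differences without a call could change sign, as Atf4 under DZ did from -0.02 to 0.08 with quantile normalization. The lost calls were those of Trib3 and Ppp1r15a under DZ and of Atf4 under adenine, and the gained ones were Ddit4 under SAM, and the cause was not tested. Same-numbered dishes are not paired by the labels or by their values. With a replicate block, 6 regulators were called under DZ, as Trib3 (-0.13) was not, and Ddit4 under SAM (-0.13) was called. Atf3 under SAM had the fewest reads, 216 in a library, and so the largest counting error of the 10 genes.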
